A study of Mus musculus with 4 samples.

Results

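The AP-1 and immediate early factors measured here were the transcripts of 10 mouse genes, of 7577 that the arrays named and gave values for: Fos, Fosb, Fosl2, Jun, Junb, Jund, Egr1, Egr2, Atf3 and Ier2. Their probe sets were found by gene symbol in the platform annotation, which assigned 15 probe sets to these genes alone. Of these, 14 had values and 1, a second Fos probe set, was blank on all 4 arrays and was not analysed here. The 14 were part of 10649 probe sets with values. RNA was measured on 1-colour Affymetrix arrays from peritoneal macrophages of mice labelled PPARg KO (2 arrays) and of mice labelled PPARg WT (2 arrays), both on a mixed 129/SV and C57BL/6 background. PPARγ, encoded by Pparg, is a lipid-activated nuclear receptor. All mice had been given 2.5 ml of 3% thioglycollate, an irritant that recruits monocytes into the peritoneal cavity, and cells were lavaged 3 days later. Both genotypes were cultured alike, first for 5 h in 10% serum, then, once washed, in 0.5% serum for 24 h, and the labels give no ligand or stimulus. The labels name neither the Cre driver, if any, nor the deleted part of the gene, nor the age of the mice, and it is not stated that replicate arrays are from different animals or cultures. The p-values therefore rest on a spread between arrays that may be purely technical.

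Fos and Jun proteins pair through leucine zippers to form AP-1, which binds DNA at short palindromic sites and acts downstream of MAP kinases. Fos, Egr1 and Ier2 are immediate early genes: their transcripts appear within minutes of serum, adhesion or a microbial stimulus and decay quickly, so a resting culture holds few of them. Egr2 and Atf3 are also induced by stimuli but are known in macrophages for longer-lasting roles, Egr2 in differentiation and alternative activation and Atf3 in limiting inflammatory gene expression. Jund, by contrast, is made in most cells without a stimulus.

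Short promoter windows of 3 members are printed because these genes are read against each other below: Egr2 had the most negative difference between genotypes, Jun the most positive, and Fos is the classical immediate early gene. Each runs 5′ to 3′ on the gene's strand, from 250 bases before to 50 after an annotated start, in RefSeq's GRCm38.p6. Egr2 lies at chr10:67537619-67537918 (plus strand), Jun at chr4:95052173-95052472 (minus strand) and Fos at chr12:85473640-85473939 (plus strand). Capitals mark the matches to 6 motifs searched on both strands.
Egr2: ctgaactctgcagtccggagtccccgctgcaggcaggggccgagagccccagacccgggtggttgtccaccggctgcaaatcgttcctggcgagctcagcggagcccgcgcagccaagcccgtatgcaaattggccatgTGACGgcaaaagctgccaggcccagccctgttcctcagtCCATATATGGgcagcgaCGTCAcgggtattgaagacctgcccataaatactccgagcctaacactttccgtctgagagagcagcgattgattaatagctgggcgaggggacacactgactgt
Jun: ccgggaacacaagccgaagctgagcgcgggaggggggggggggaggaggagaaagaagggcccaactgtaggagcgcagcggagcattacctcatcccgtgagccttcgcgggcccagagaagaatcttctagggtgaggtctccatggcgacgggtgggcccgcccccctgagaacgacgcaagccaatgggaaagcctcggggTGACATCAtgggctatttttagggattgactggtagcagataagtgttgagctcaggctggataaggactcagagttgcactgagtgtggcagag
Fos: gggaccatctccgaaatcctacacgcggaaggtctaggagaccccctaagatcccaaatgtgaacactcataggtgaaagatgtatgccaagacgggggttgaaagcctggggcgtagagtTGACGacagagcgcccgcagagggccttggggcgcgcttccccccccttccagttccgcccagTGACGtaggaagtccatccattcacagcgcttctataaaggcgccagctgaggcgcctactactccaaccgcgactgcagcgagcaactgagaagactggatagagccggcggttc
The motifs were the CArG box bound by serum response factor, the cAMP response element TGACGTCA, its core TGACG (contained in the full site), the AP-1 site TGANTCA, the AP-1-like site TGACATCA and the EGR site GCGNGGGCG. Of the 10 members, 8 had a promoter in the RefSeq table. Egr1 and Ier2 had none there and were not searched. The window of Egr2 is the one of its 5 with the most matched bases. The search reached only 250 bases before a start, so sites farther upstream were not seen for any member. Within these windows Egr2 alone held a CArG box, whose first base lay 72 bases before the start. That motif was in 1.63% of all 32851 promoter windows, a share that cannot be set against the Egr2 window, which was chosen for its matches. Jun alone held the AP-1-like site, 45 bases before its start (3.62% of all windows). The core occurred in Fos, Fosb, Junb, Egr2 and Atf3 (20.8% of all windows) and the EGR site in Fosb and Fosl2 (5.55%). A member counted if any of its windows held the motif, so these shares of single windows are not a like comparison. The full cAMP response element (1.79%) and the AP-1 site (7.81%) were in 0 of the 8. A match is a run of letters and says nothing of binding in these cells.

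None of the 10 members differed between KO and WT macrophages past the test's threshold. Egr2, a zinc finger factor, was the member with the largest difference, at 536.8 ± 34.1 intensity units in KO and 665.2 ± 20.2 in WT cells (SD, n = 2 each). Jun lay at the other end, at 359.6 ± 18.4 in KO and 303.5 ± 14.6 in WT cells. Jund and the brightest Atf3 probe set had nearly equal means in both genotypes, and 5 members had higher and 5 lower means in KO cells. The comparison addressed what loss of Pparg does to transcript levels in macrophages elicited with thioglycollate and cultured with no further ligand or stimulus in the labels. Each difference is the KO mean minus the WT mean of log2(signal + 16), and adjusted p-values come from limma with Benjamini-Hochberg adjustment over all 6389 probe sets that passed a filter on dim signals (mean above about 111 units). All 10 genes and 12 of their 14 probe sets passed that filter. Over the 10 genes, each represented by its brightest probe set, the differences ran from -0.30 to 0.23 with a median of 0.0078, and the median of all 5002 genes tested was -0.021. The count of 0 members called stands against a background of 3.72% of genes called, and 0 of the 12 probe sets against 3.55% of probe sets. By unadjusted p under 0.05, limma had 1 of the 12 probe sets (Egr2), against 9.47% of all probe sets, and without variance moderation it also had 1, against 6.07%.

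Array quality, the targeted gene and the cell identity were checked first. Array medians lay between 136.7 and 142 units and differed by less than 0.1 on the log2 scale. Pparg itself, with 1 usable probe set, read 43.0 and 40.6 in KO cells, against 61.1 and 73.1 in WT cells (log2 difference -0.52, limma adjusted p = 0.00012 without a filter). All 4 signals lay below the median of the antisense controls of their array, so the labels were checked only weakly. Of 10 macrophage markers, 9 exceeded the highest antisense control on all 4 arrays, and Mertk, a receptor for apoptotic cells that fell in KO cells (134.7 and 150.5 units, against 225.6 and 233.4 in WT cells, adjusted p = 1.37e-06), did so on 3. Of 9 fibroblast and mesothelial markers with values, 5 were tested, 1 rose (Dcn) and all 5 had higher means in KO cells. The summed signal of all 9 was 2575 and 2915 in KO, against 2069 and 2035 in WT. The mesothelial markers Msln, Upk3b, Krt19 and Wt1 were above the highest antisense control on 0 arrays. Of 9 neutrophil markers, S100a8 fell (3 were tested), and 7 of the 9 were above the highest antisense control on 0 arrays. Without either WT array, which left 1 in that genotype, Dcn (log2 differences 0.82 and 0.69) and S100a8 (-0.61 and -0.54) missed the threshold. These genes and Mertk also missed it without variance moderation (adjusted p = 0.78 for each), where 0 of all 6389 probe sets passed. Of 7 B cell markers with values, 4 exceeded the highest antisense control on all 4 arrays, and 0 of the 6 tested passed. Fibroblasts and neutrophils also make AP-1 and EGR transcripts, and the part of these or other cells in the values below was not tested. In a bulk sample, a smaller share of cells of a type and less RNA per cell cannot be told apart.

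**Figure D1:**
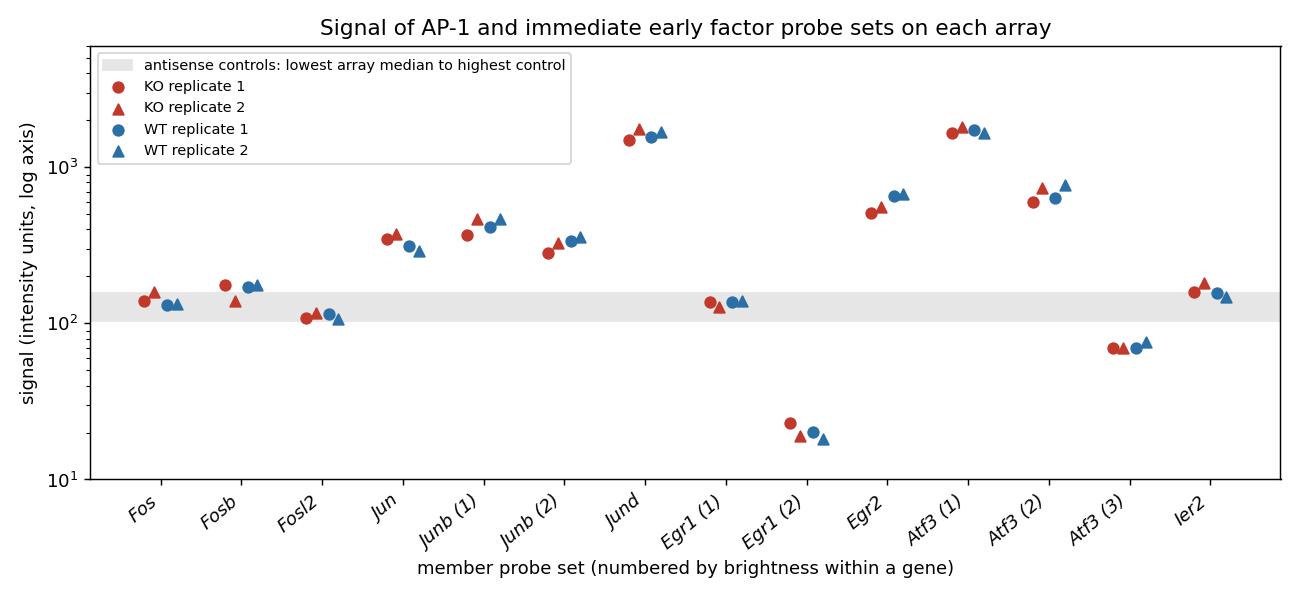
Signal of each of the 14 member probe sets (log axis, intensity units) on the 2 KO arrays (red) and the 2 WT arrays (blue), with circles for replicate 1 and triangles for replicate 2. The grey band runs from the lowest array median of the 12 antisense controls (103.8) to the highest single control (156.7). Fos, Fosl2 and Egr1 lie in or below the band on most arrays, while Jun, Junb, Jund and Egr2 lie above it on all 4.

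Brightness set what could be read for each member. Antisense controls, which should catch no transcript, reached 143.7 to 156.7 units on the 4 arrays. On all 4 arrays, 7 of the 14 member probe sets exceeded the highest control of their array: those of Jun, Jund and Egr2, both Junb probe sets and 2 of the 3 for Atf3. Another 4 exceeded it on 0 arrays, namely Fosl2, both Egr1 probe sets and the dimmest of Atf3. Fos exceeded it on 1 array and Fosb and Ier2 on 3 each. The plot of signals by array shows this split. For the dim members, a change of the transcript would reach the values only in part.

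Among the Fos genes, whose products pair with Jun proteins, Fos itself read 140.2 and 159.5 units in KO cells, against 130.9 and 132.5 in WT cells. Both KO values were above both WT values, but only KO replicate 2 stood clear of the antisense controls. The log2 difference was 0.16 (SE 0.11, limma adjusted p = 0.85), with a 95% interval that reached from 1.04-fold lower to 1.30-fold higher. Fosb, a paralogue with the same dimer partners, read 177.2 and 138.5 in KO cells, against 171.0 and 177.2 in WT cells. Here KO replicate 2 alone was low, the genotypes overlapped, and the difference of -0.14 (adjusted p = 0.95) rested on that array: without it the difference was 0.024. Fosl2, which encodes Fra-2, a Fos protein that persists after the early ones decay, read 108.6 and 116.7 in KO cells, against 114.8 and 107.0 in WT cells. The genotypes overlapped, at signals just above the filter and within the range of the antisense controls (log2 difference 0.020, adjusted p = 0.9997).

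The Jun genes, whose products form the other part of AP-1, were brighter than the antisense controls throughout. Jun read 346.6 and 372.6 in KO cells, against 313.8 and 293.2 in WT cells. Both KO values lay above both WT values, and the difference of 0.23 (SE 0.13, 1.18-fold) had an unadjusted p of 0.069 and an adjusted p of 0.63 in limma. The interval ran from 1.01-fold lower to 1.40-fold higher. Junb, which in many settings restrains Jun at its targets, was measured by 2 probe sets, and the annotation's suffixes mark them as built with relaxed rules (r) or with fewer probes than usual (i). The brighter one, of the r kind, read 367.9 and 468.0 in KO cells, against 417.8 and 467.9 in WT cells, which overlapped (log2 difference -0.088, adjusted p = 0.9997). The i probe set read 280.8 and 329.3 in KO cells, against 335.3 and 357.5 in WT cells, with both KO values below both WT values (-0.18, adjusted p = 0.90). The sign of the brighter one depended on KO replicate 1, without which the difference was 0.079. Jund read 1490.4 and 1771.9 in KO cells, against 1576.7 and 1684.7 in WT cells. The KO arrays fell on either side of the WT arrays, and the means of 1631 in KO and 1631 in WT cells gave a log2 difference of -0.0041 (SE 0.16), with an interval from 1.24-fold lower to 1.24-fold higher.

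The EGR genes encode zinc finger factors that bind GC-rich sites. Egr2 read 512.7 and 560.9 in KO cells, against 650.9 and 679.5 in WT cells. Both KO values were below both WT values, and the gap between the nearest values was wider than the gap within either genotype. The difference was -0.30 (SE 0.15, 1.23-fold lower in KO), with an unadjusted p of 0.040 and an adjusted p of 0.45 in limma. Of all tested probe sets, 4.62% had a more negative difference. Egr2 was the lowest of the 10 members, so this is not the share of a gene picked in advance. The interval reached from 1.51-fold lower in KO to nearly no difference (0.99 as a ratio of KO over WT). Egr1, the classical growth factor response gene, read 137.6 and 127.6 in KO cells, against 138.1 and 139.4 in WT cells on its brighter probe set. The KO values were lower by little, within the range of the antisense controls (-0.059, adjusted p = 0.9997). Its other probe set read 23.1 and 19.1 in KO cells, against 20.3 and 18.1 in WT cells, below the filter and below the antisense median of every array. So no direction can be read for Egr1. The NAB corepressors that bind EGR proteins did not pass either: Nab1 read 303.1 and 346.9 in KO, against 345.3 and 329.9 in WT, and Nab2 146.6 and 177.2 in KO, against 146.3 and 163.2 in WT (adjusted p = 0.9997 for both).

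Atf3, a bZIP factor induced by stress and by Toll-like receptors, was measured by 3 probe sets. The brightest carries the suffix f, for probes that can also match related sequences, so its level is uncertain. It read 1668.4 and 1802.7 in KO cells, against 1744.8 and 1663.5 in WT cells, which overlapped (0.025, adjusted p = 0.9997). The second, of the r kind, read 599.0 and 737.8 in KO cells, against 638.4 and 773.1 in WT cells. Replicate 2 was the higher array in both genotypes there, by more than the genotypes differed (-0.078, adjusted p = 0.9997). The third, below the filter, lay between 69.6 and 69.9 in KO cells and between 69.4 and 75.6 in WT cells. Ier2, a nuclear immediate early protein, read 159.4 and 181.9 in KO cells, against 155.7 and 147.7 in WT cells. Both KO values were above both WT values, and the nearest pair lay close together (0.15, SE 0.11, adjusted p = 0.91).

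**Figure D2:**
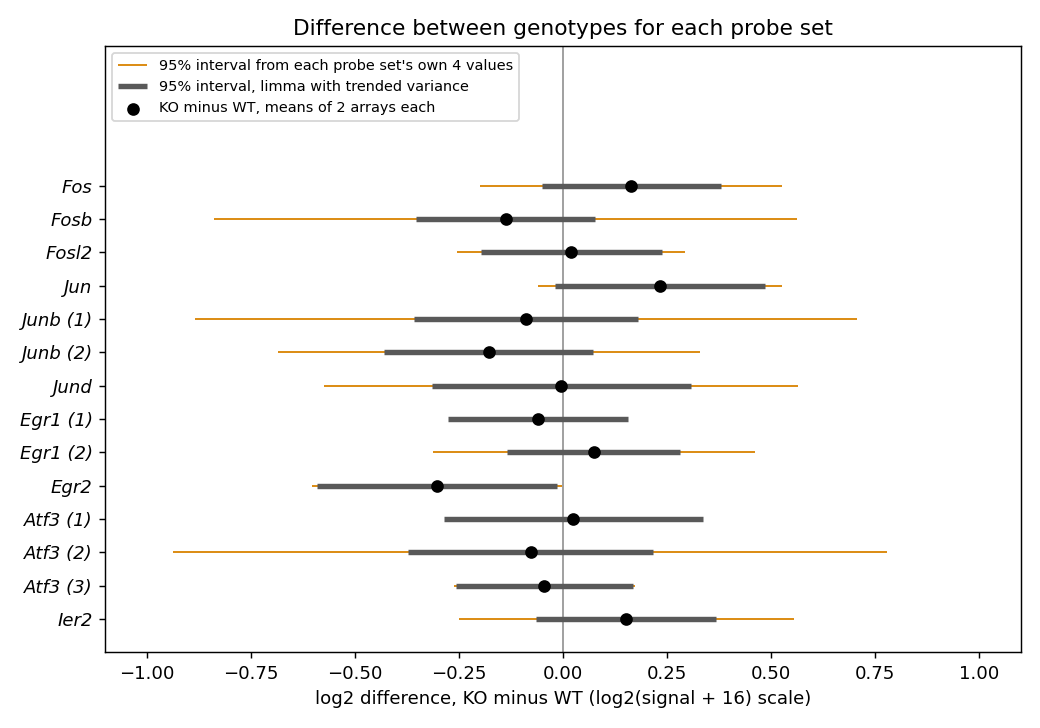
Log2 difference of KO minus WT for each member probe set (black point, means of 2 arrays each), with 95% intervals from limma's trended variance (thick grey) and from each probe set's own 4 values (thin orange, hidden behind the grey where shorter). All limma intervals except that of Egr2 cross 0, and the orange intervals differ widely in length.

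The intervals bound the difference in signal. For 5 of the 12 probe sets that passed the filter (Fos, Fosb, Fosl2, the brighter one of Egr1, and Ier2), which did not exceed the highest antisense control on all 4 arrays, they do not bound the change of the transcript. Of the 12, 11 had a limma interval within 1.5-fold either way, and the exception was Egr2 (up to 1.51-fold lower). Each of these intervals takes its spread from all probe sets of like brightness, because limma estimated infinite prior degrees of freedom. With each probe set's own spread, on 2 residual degrees of freedom, 7 of the 12 stayed within 1.5-fold. The widest were those of the second Atf3 probe set (1.91-fold lower to 1.72-fold higher) and the brighter Junb probe set (1.84-fold lower to 1.63-fold higher). On all 4 arrays together, KO lay wholly above WT for 3 of the 12 (Fos, Jun and Ier2) and wholly below it for 3 (the i probe set of Junb, the brighter one of Egr1, and Egr2). These 6 of 12 stand against 32.4% of all tested probe sets whose genotypes did not overlap.

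Much of the members' variation lay within the genotypes. For all 12 probe sets that passed the filter, the 2 KO arrays differed more than the 2 WT arrays did, as was the case for 67.4% of all tested probe sets. The median size of the difference between replicates over all 14 member probe sets was 0.16 in KO and 0.089 in WT on the log2 scale. Over all tested probe sets these medians were 0.16 in KO and 0.098 in WT. KO replicate 2 exceeded KO replicate 1 for 10 of the 14 member probe sets, and WT replicate 2 exceeded WT replicate 1 for 9. The shift grew with brightness over the whole table: in the brightest signal decile KO replicate 2 lay above KO replicate 1 by a median of 0.21, and WT replicate 2 above WT replicate 1 by 0.073. Jund, in that decile, showed differences of 0.25 in KO and 0.095 in WT. The largest departure was that of Fosb, whose KO replicate 2 was lower by 0.32 where the median of its decile was 0.018.

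**Figure D3:**
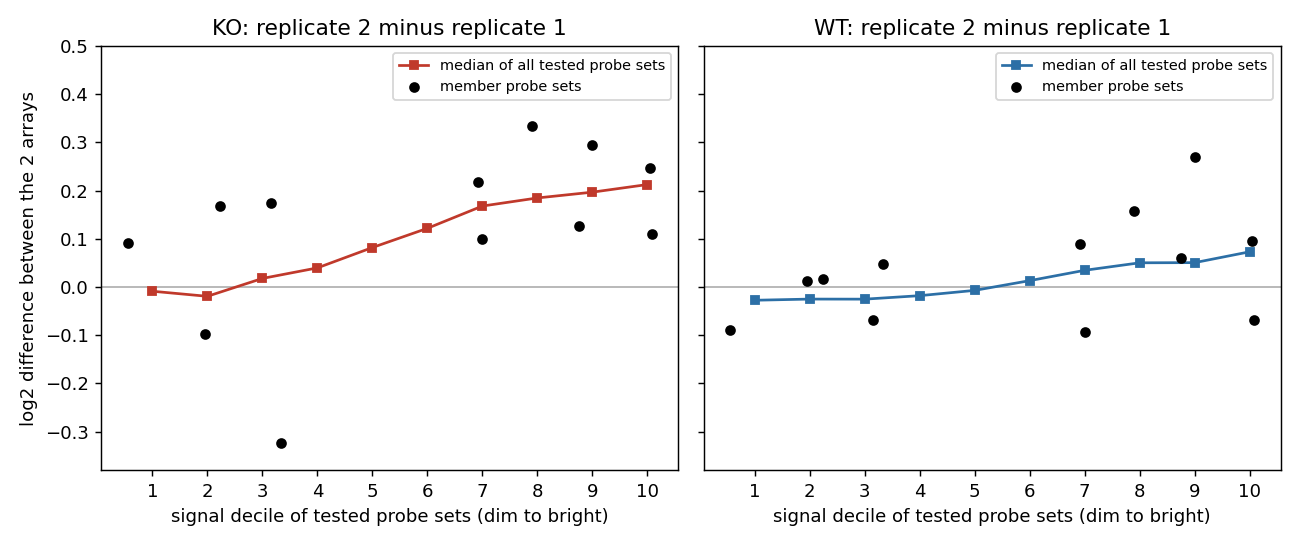
Replicate 2 minus replicate 1 on the log2 scale, for KO arrays (left) and WT arrays (right), against the signal decile of tested probe sets. Lines join the medians of all tested probe sets per decile, and black points are the 12 member probe sets that passed the filter. The KO line climbs to 0.21 in the brightest decile and the WT line to 0.073.

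The genes around AP-1 were described from lists chosen from general knowledge. Besides the members, 86 genes of these lists were tested, and 1 of them passed, lower in KO, against 2.66% of all genes called lower. That gene was Tnf, an inflammatory cytokine gene with AP-1 sites in its regulatory DNA. It read 177.1 and 215.0 in KO cells, against 256.4 and 283.8 in WT cells, with no overlap (log2 difference -0.44, SE 0.12, adjusted p = 0.0071). Tnf missed the threshold without variance moderation (adjusted p = 0.85), where 0 of all 6389 probe sets passed. It also missed it without KO replicate 1, WT replicate 1 or WT replicate 2 (log2 differences -0.31, -0.51 and -0.37). Each of these fits left 1 array in a genotype. The other 15 tested genes with known AP-1 sites did not pass. Of the 16 tested, 5 had higher and 11 lower means in KO cells, with a median difference of -0.11. With quantile normalization 4 of the 16 passed (6.56% of all probe sets were called), and with the replicate number as a block 3 (7.51%). Without variance moderation 0 passed (0%).

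Kinases and phosphatases that control AP-1 did not pass as single genes with the values as deposited. Of 15 MAP kinases and upstream kinases, 12 had lower and 3 higher means in KO cells, with a median of -0.096 and 0 past the threshold. Map3k3, which encodes the kinase MEKK3, read 194.8 and 204.9 in KO, against 243.2 and 222.8 in WT (adjusted p = 0.65). Map3k8, the kinase that links Toll-like receptors to ERK, read 106.5 and 121.2 in KO, against 141.8 and 122.6 in WT, under the highest antisense control on every array (adjusted p = 0.70). Dusp1, the phosphatase that switches off p38 and JNK and is itself an immediate early gene, had the smallest p of its list. It read 335.9 and 384.5 in KO cells, against 291.1 and 274.9 in WT cells, with both KO arrays above both WT arrays (0.33, adjusted p = 0.18). Dusp1 passed with quantile normalization (adjusted p = 0.014), where 6.56% of all probe sets were called. Its difference was 0.42 without KO replicate 1 and 0.24 without KO replicate 2. Dusp2, which acts on ERK and p38, overlapped at 206.3 and 176.9 in KO, against 194.5 and 172.4 in WT. Of the factors that switch on Fos and Egr promoters, Elk1 (-0.10) and the SRF coactivator gene Mrtfa (0.030) had adjusted p = 0.9997. Elk1 exceeded the highest antisense control on 1 array.

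Other bZIP factors and immediate early genes had differences of both signs, none past the threshold in the main fit. Among 10 tested partners of the BATF, JDP2, MAF and C/EBP kind, Cebpd read 208.9 and 232.6 in KO, against 186.1 and 159.0 in WT (0.33, adjusted p = 0.080). Cebpb, which drives inflammatory and alternative activation genes in macrophages, went the other way at 1234.6 and 1594.5 in KO, against 1694.9 and 1815.7 in WT (-0.32, adjusted p = 0.50). Both passed with quantile normalization (adjusted p = 0.031 for Cebpd and 0.037 for Cebpb), where 6.56% of all probe sets were called. Neither passed without variance moderation, where 0% were called. Leaving out KO replicate 1 gave 0.40 for Cebpd and -0.14 for Cebpb. Leaving out KO replicate 2 gave 0.26 for Cebpd and -0.50 for Cebpb. The list's median was -0.12. Of the ATF and CREB genes, 0 of 6 passed. Ddit3, which encodes the stress factor CHOP, read 364.5 and 455.8 in KO, against 490.5 and 515.9 in WT (-0.29, adjusted p = 0.43). Its difference was -0.14 without KO replicate 1 and -0.45 without KO replicate 2. Atf4, the upstream activator of Ddit3, overlapped (-0.15, adjusted p = 0.9997). Of 22 other immediate early genes besides Ier2, 0 passed. Gadd45g, a stress sensor gene, read 217.4 and 259.5 in KO, against 187.7 and 185.4 in WT (0.32, adjusted p = 0.0999). With quantile normalization its adjusted p was 0.030. The Gadd45g difference was 0.44 without KO replicate 1 and 0.20 without KO replicate 2. Klf4, a factor of monocyte differentiation, read 131.1 and 138.5 in KO, against 166.5 and 155.3 in WT (-0.23, adjusted p = 0.43). Klf4 exceeded the highest antisense control on 1 array. Of 11 heat shock and stress genes, which also respond to handling of cells, 0 passed, and their median was 0.0024. The co-chaperone gene Bag3 (0.17, adjusted p = 0.84) and the heme oxygenase gene Hmox1 (-0.23, adjusted p = 0.88) had the smallest p-values among them. The Hmox1 difference was -0.066 without KO replicate 1 and -0.39 without KO replicate 2.

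**Figure D4:**
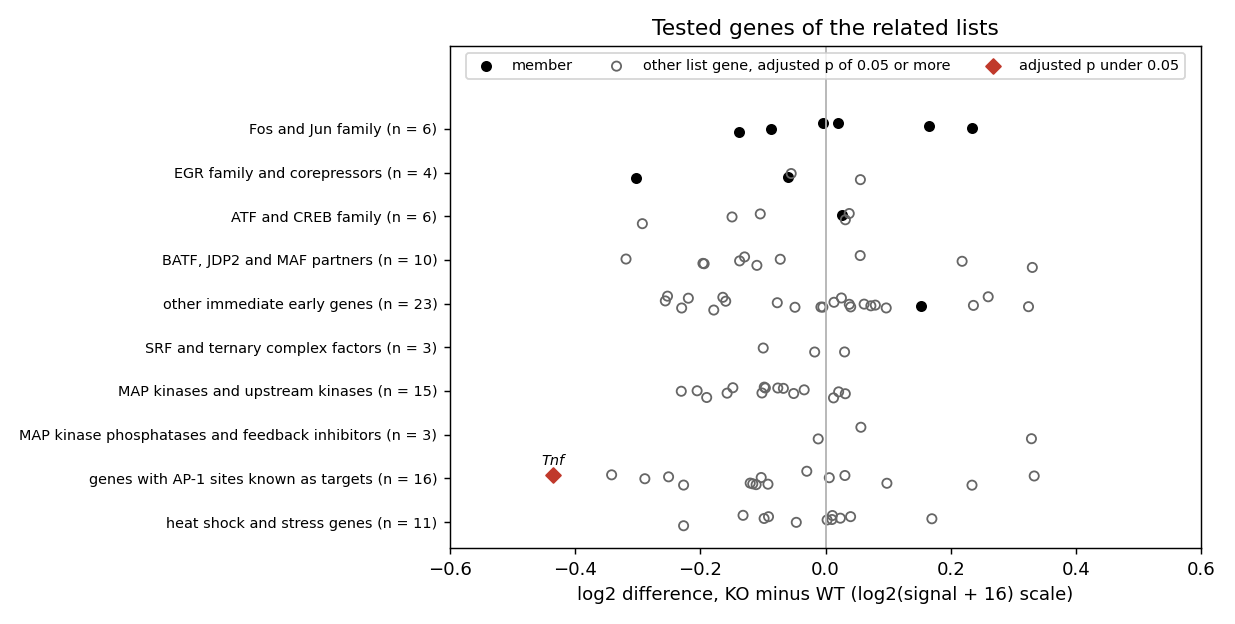
Log2 difference of KO minus WT for each tested gene of the 10 lists around AP-1, with members as filled points, other genes as open points and the 1 gene past the adjusted threshold, Tnf at -0.44, as a red diamond. Hmox1 is in 2 lists, and vertical scatter within a row has no meaning.

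The mean profile of the 10 members over the 4 arrays was nearly flat. After centring each gene on its own mean, it read -0.046 and 0.047 on the KO arrays, against -0.0036 and 0.0033 on the WT arrays (log2 scale). The 5 other genes closest to it by root mean square distance over the 4 arrays were Ranbp3 (0.0081), Dolpp1 (0.0088), Nup85 (0.0095), Blm (0.011) and Ube2g1 (0.012). All 5 had adjusted p = 0.9997 and differed mainly between the KO arrays, a shape that their selection by distance to this profile set in advance. The mean profile does not describe each member. Egr2 and Jun differed more between genotypes (-0.30 and 0.23) than between the KO arrays (0.13 and 0.10).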

How the data were processed

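The table deposited by the authors gives a linear intensity for each probe set on each array, judged from its values. The summary of probes, background correction and scaling behind it are not given in the sources used here. Blank on all 4 arrays were 1780 of 12488 rows, and 59 rows with values were controls. The remaining 10649 probe sets were named through the platform annotation, 9389 with 1 gene and 1260 with several or none. Values were used as deposited, since array medians differed by less than 0.1 on the log2 scale. Probe sets with a mean log2(intensity + 16) above the 40th percentile were fitted by lmFit and eBayes (trend = TRUE) of limma 3.58.1, under R 4.3.3. Tests were two-sided, and the threshold was 0.05 on the adjusted p of Benjamini and Hochberg. Members below the filter were taken from a fit without it. An exact permutation test of 2 arrays against 2 cannot go below p = 0.333. The number of arrays limits the precision. Genotype and replicate number came from the sample titles.

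The members and gene lists were chosen with earlier results of these data known. Named genes are all members, Pparg, per list the genes past the threshold with the smallest p (up to 4) or, with none past it, the 2 with the smallest p, and the 5 closest profiles. For marker lists, only genes past the threshold are named by that rule. Of the markers, Msln, Upk3b, Krt19 and Wt1 were named after their values were seen. On simulated arrays, 200 of 6389 probe sets were changed: 100% of changes of 1 and 79% of changes of 0.5 on the log2 scale were recovered, with 8 false calls. Python 3.11.15 with matplotlib 3.10.9 drew the figures.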

Additional observations from a re-analysis of the deposited data

How the results depend on the processing

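The count of 0 members past the threshold held in 15 of 16 alternatives, but these were not all equal as checks. Without variance moderation, 0 of all 6389 probe sets were called, so that fit could hardly have called a member. Leaving out an array left 1 array in a genotype. The mean of probe sets tested 8 members, and the filter at the 60th percentile 5. The exception was the replicate block, which gave 1 (Egr2, -0.30, adjusted p = 0.036). That fit called 7.51% of all probe sets, against 3.55%. Same-numbered KO and WT arrays deviated together (correlation 0.416 over all tested probe sets), but the labels do not say that the number marks a shared mouse or day, and 2 pairs cannot settle it. Quantile normalization left Egr2 at adjusted p = 0.057. Over the alternatives Egr2 ran from -0.37 to -0.24 and Jun from 0.18 to 0.28. Fos ran from 0.081 to 0.25 and Ier2 from 0.065 to 0.24, and none of these members changed sign. Egr1 ran from -0.11 to -0.011, but it had no value with the mean of its probe sets, which differed in sign (-0.059 and 0.074).

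The sign of other members changed, and not only at values close to 0. Over the alternatives Fosb ran from -0.30 to 0.024. Jund turned to 0.049 with quantile normalization, 0.022 with median centring, 0.12 without KO replicate 1 and 0.043 without WT replicate 2. Atf3 turned to -0.032 with the mean of its probe sets, -0.030 without KO replicate 2 and -0.0087 without WT replicate 2. Fosl2 turned to -0.026 without KO replicate 2 and -0.025 without WT replicate 2, Fosb to 0.024 without KO replicate 2 and Junb to 0.079 without KO replicate 1. At the other end, leaving out KO replicate 2 gave -0.26 for Junb, -0.13 for Jund, -0.15 for Nab1 and 0.16 for Dusp2. Of genes outside the members, Nab2 turned to -0.069 without KO replicate 2 and -0.016 without WT replicate 1, Nab1 to 0.038 without KO replicate 1, and Dusp2 to -0.046 without KO replicate 1 and -0.024 without WT replicate 2. The cause was not tested.

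The count of other list genes past the threshold, 1 as reported, was 9 with quantile normalization (6 higher, 3 lower; 6.56% of all probe sets were called), 8 with the replicate block (7.51%), 4 with the mean of probe sets (4.42% of genes), 4 at an adjusted p under 0.1 (4.40%), 3 without a filter (3.11%), 2 with median centring (3.15%) and 0 without variance moderation (0%). Leaving out single arrays gave 0 to 4: 4, all higher, without KO replicate 1 (3.93%), 4, all lower, without KO replicate 2 (5.12%), and 0 without WT replicate 1 (1.13%) or WT replicate 2 (0.845%). The block also brought Cebpd (adjusted p = 0.0056), Gadd45g (0.0070), Dusp1 (0.0090), Ddit3 (0.038) and Cebpb (0.041) past the threshold, and the mean of probe sets Cebpd (0.029) and Gadd45g (0.039). With the filter at the 60th percentile, 5 members were tested. Dim signals limit Fos, Fosl2, Egr1, Fosb and Ier2.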
